A study of Homo sapiens with 7 samples.

Results

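The peaks described here are those of the vitamin D receptor (VDR) around 5 genes that set whether a cell divides: CCND2, CDKN1B, GADD45A, CDKN1A and MYC. A peak counted for a gene when it overlapped the gene or the 100 kb on either side of it, in hg19 coordinates, whatever its strength. Of 89218 peaks in the 6 lists, 34 met this rule, 18 of them in 1,25D lists and 16 in EtOH lists. Merging peaks that share at least 1 bp gave 29 sites, of which 25 were in 1 list and 4 in more than 1.

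The libraries came from THP-1, an established human line of acute monocytic leukaemia. Cells received 100 nM 1α,25-dihydroxyvitamin D3 (1,25D), the ligand of VDR, or 0.1% ethanol (EtOH), its solvent, and both treatments lasted 8 h. VDR-bound DNA was isolated by ChIPmentation, in which a transposase inserts the sequencing adapters into immunoprecipitated chromatin. There were 3 libraries per treatment, all with the same antibody, and 1 input library not analysed here. The labels name no separate cultures, so the spread between libraries may be technical. No read counts are given, so depth is unknown, and a peak missing from a list is a region below the threshold of the peak caller and not one shown to lack VDR.

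The lists differ in length and reach. They hold between 3647 and 15262 peaks after 1,25D and between 11895 and 33820 after EtOH, and 3 of them stop in mid-line, so that all 6 cover chromosomes 1 and 12 but not 6 and 8. CCND2, CDKN1B and GADD45A are therefore covered by 3 1,25D and 3 EtOH lists, CDKN1A by 1 1,25D list (replicate 1) and 3 EtOH lists, and MYC by 1 1,25D list (replicate 1) and 2 EtOH lists (replicates 1 and 2). EtOH replicate 2 is the longest list. Where all 6 lists reach, it holds 11317 peaks, against 5251 and 5722 in EtOH replicates 1 and 3. It supplied 13 of the 16 EtOH peaks near these genes. Results that rest on it are also given without that library or with all lists held to the same number of peaks, the strongest of each. Each peak has an enrichment over background and a p-value, both given by the authors' peak caller for that list. This enrichment is called the fold here. Because a fold belongs to its own list, lists were compared by percentile, the share of the list's peaks with a lower fold (ties at their middle), over the part of the genome that all covering lists share. Where all 6 lists reach, peaks with a fold of 5 or more make up 14.5% to 22.5% of the 1,25D lists and 2.57% to 5.39% of the EtOH lists. A fold of 5 thus stands at a higher percentile in an EtOH list. At lower folds this does not always hold. The median fold was 3.63 in EtOH replicate 1 and 3.53 and 3.45 in 1,25D replicates 2 and 3.

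In the cell cycle, D-type cyclins activate the kinases that release cells from G1, and MYC drives the transcription that growth needs. The inhibitors encoded by CDKN1A and CDKN1B block cyclin-dependent kinases, and GADD45A encodes a stress protein that slows division after DNA damage. 1,25D is known to slow the growth of myeloid leukaemia cells while they take on monocyte and macrophage features. VDR binds DNA with its partner RXR, classically at direct repeats of a half-site spaced by 3 bp, and can lie far from the gene it controls.

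RefSeq's promoter table (GRCh38.p14, 250 bases before to 50 after the start of transcription) held 2 of the 5 genes, CDKN1B and CDKN1A. They are shown because neither start had a VDR peak close to it, as described below. Capitals mark the 50 bases from the start on. The CDKN1B promoter is chr12:12717118-12717417 and that of CDKN1A is chr6:36678464-36678763, both on the plus strand. The CDKN1A start used in that table lies 2251 bp inside the GRCh38 record of the gene.
CDKN1B: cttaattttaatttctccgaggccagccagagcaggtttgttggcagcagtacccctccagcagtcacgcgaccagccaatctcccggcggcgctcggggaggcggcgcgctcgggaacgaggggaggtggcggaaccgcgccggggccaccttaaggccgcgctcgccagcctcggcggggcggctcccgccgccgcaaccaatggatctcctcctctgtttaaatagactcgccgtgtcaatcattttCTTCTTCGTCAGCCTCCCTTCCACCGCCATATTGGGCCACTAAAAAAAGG
CDKN1A: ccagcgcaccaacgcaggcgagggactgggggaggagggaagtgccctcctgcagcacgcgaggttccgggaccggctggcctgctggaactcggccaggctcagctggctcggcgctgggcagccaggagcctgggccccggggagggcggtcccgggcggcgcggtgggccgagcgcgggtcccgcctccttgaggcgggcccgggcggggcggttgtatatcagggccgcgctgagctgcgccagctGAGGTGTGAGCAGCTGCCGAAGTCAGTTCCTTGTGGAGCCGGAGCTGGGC
Each sequence was searched on both strands for the half-sites AGGTCA or GGTTCA or AGTTCA or GGGTCA. Neither holds any of them, alone or as a direct repeat with 3 bases between. Among the 35116 promoters of the table, 38.6% hold at least 1 of these half-sites and 26, or 0.0740%, hold the repeat. Both are rich in G and C, at 62.3% for CDKN1B and 74.3% for CDKN1A.

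**Figure D1:**
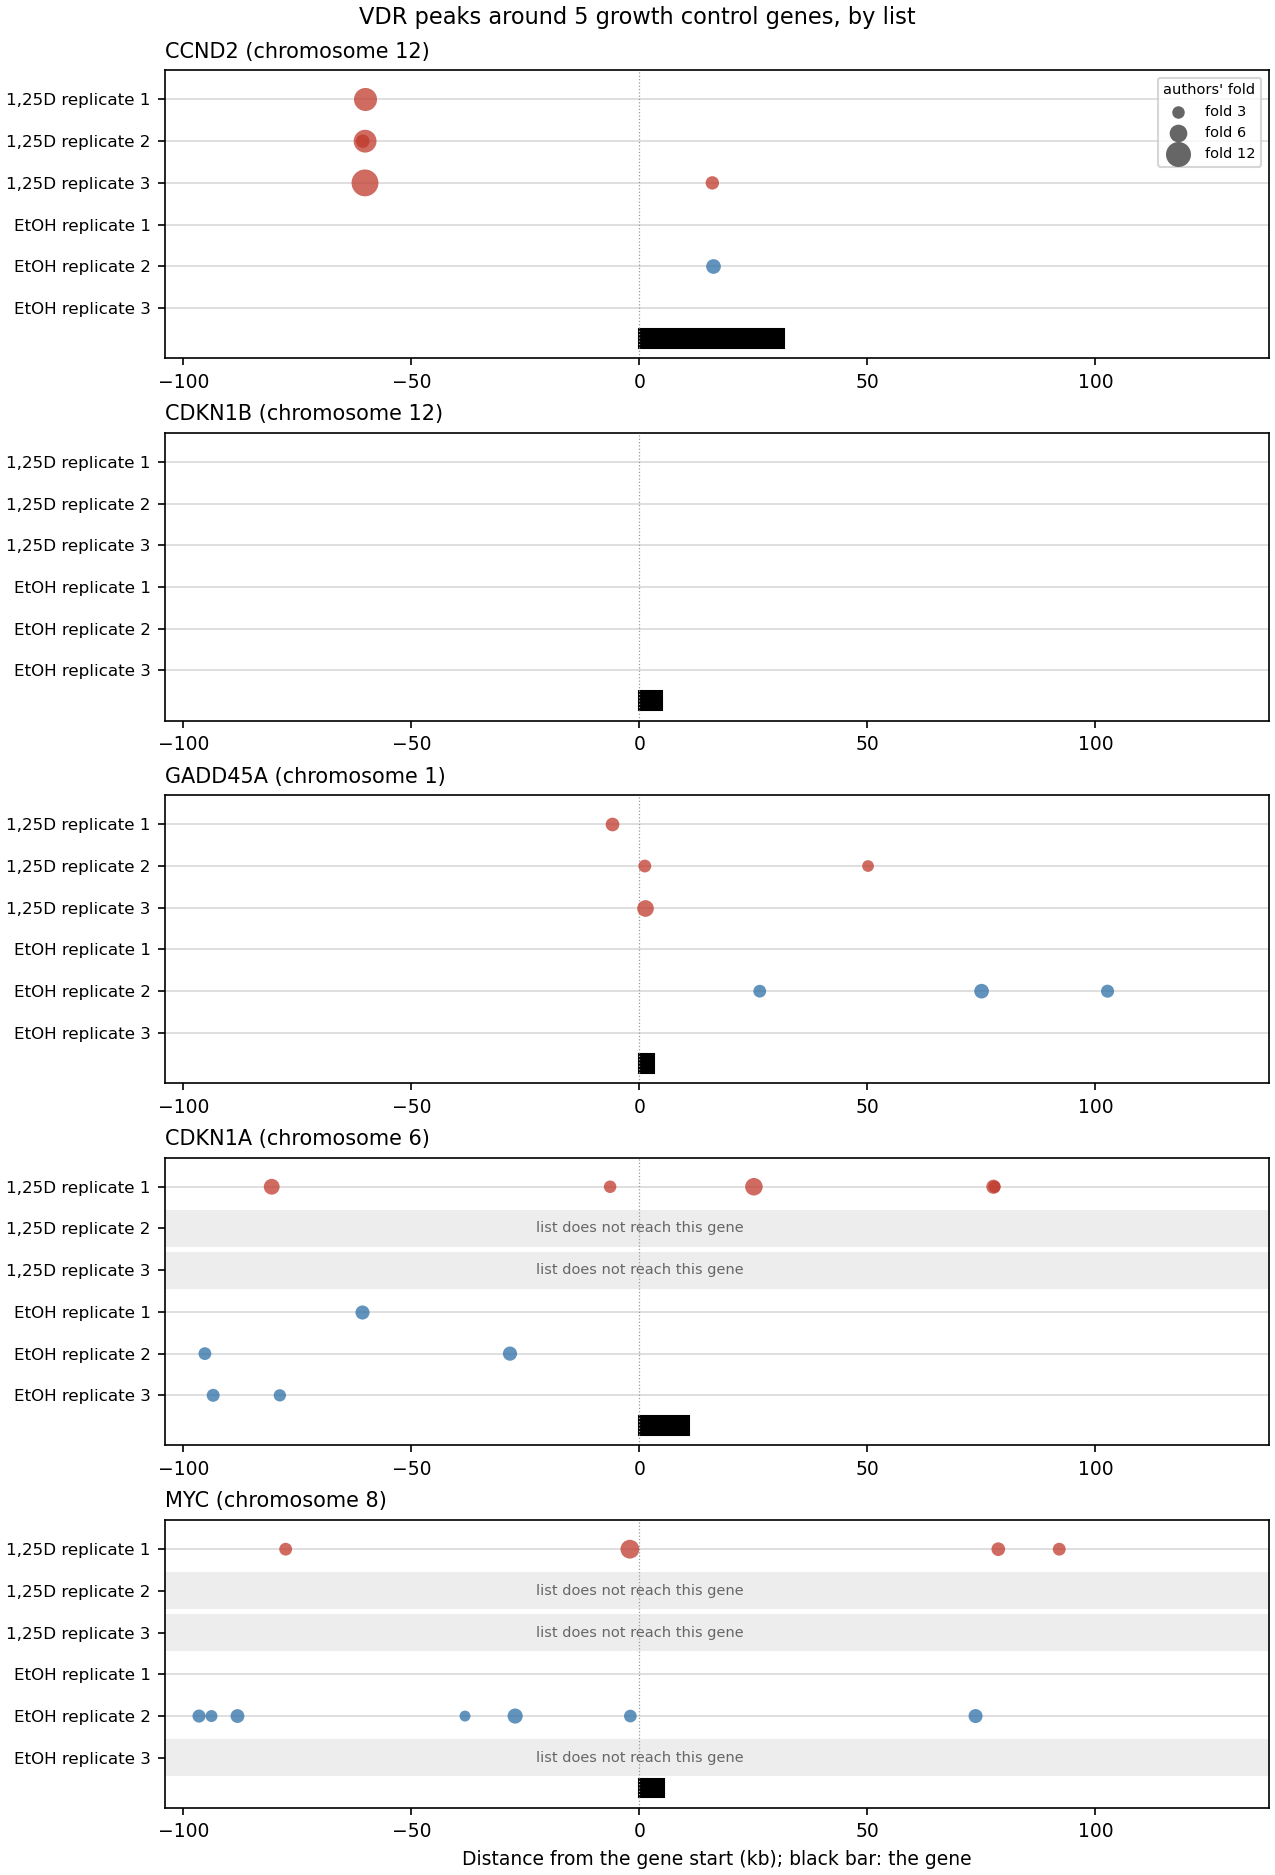
VDR peaks of each list within 100 kb of the 5 genes, plotted by distance from the gene start in kb, with 1,25D lists in red above EtOH lists in blue, the area of a point proportional to the authors' fold and the gene as a black bar. Near CCND2 a strong peak recurs in all 3 1,25D lists about 60 kb before the gene, whereas the CDKN1B panel is empty.

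CCND2, which encodes cyclin D2, had the VDR site of the highest fold in the group. Among the 3 genes that all lists cover, this site was also called in the most lists. It lay on chromosome 12 at 4322431 to 4323049, between 60.5 and 59.9 kb before the gene (chromosome 12, 4382902 to 4414522). All 3 1,25D lists called it and no EtOH list did. It was the only such site near the 3 genes that all lists cover, where 1.7% of all 28993 sites were of this kind. Of all stretches of the covered chromosomes as long as the CCND2 window (232 kb), 9.14% held such a site.

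The fold at this site was 10.2, 10.0 and 13.9 in 1,25D replicates 1 to 3 (11.4 ± 2.17, mean ± SD, n = 3), and no EtOH list had a value. The caller's p-values were 1.4e-18, 5.3e-18 and 1.2e-26. In its own list the peak ranked 191 of 5203, 229 of 3647 and 123 of 4424 by fold. The 3 peaks were 323, 618 and 436 bp long, against list medians of 159, 216 and 190 bp, and the 323 bp of the shortest lay inside both of the others. By mean percentile, the site ranked 5 of the 492 sites called in every 1,25D list and no EtOH list, whose median fold was 4.86, and 2 of the 69 on chromosome 12.

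A smaller peak of 1,25D replicate 2 (fold 3.53) stood just before this site and ended 84 bp from it. A further site lay inside CCND2, 15.9 to 16.2 kb past the start, and was called in both treatments. There 1,25D replicate 3 had a fold of 3.45 and EtOH replicate 2 a fold of 4.15, and their peaks shared 21 bp, or 11.8% of the shorter. Sites called at least once in each treatment were 5.27% of all sites.

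The CCND2 window thus held 1, 2 and 2 peaks in the 1,25D lists, against 0, 1 and 0 in EtOH replicates 1 to 3. At least as many peaks were in 54.2%, 20.3% and 24.8% of stretches of this length in 1,25D replicates 1 to 3 and in 75.0% in EtOH replicate 2, and 49.4% and 48.3% of stretches were empty in EtOH replicates 1 and 3. The difference of 1.33 gave a two-sided exact permutation p of 0.2 (0.4 after Benjamini-Hochberg adjustment over CCND2 and GADD45A), where 3 against 3 libraries cannot go below 0.1. The strongest peak stood at the 96.2nd, 93.7th and 97.2nd percentile of the 1,25D lists. It stood at the 88.5th percentile in EtOH replicate 2, and the other EtOH lists, without a peak, were set to 0. All 1,25D values were above all EtOH values, which held in 6.07% of stretches of this length, and the reverse held in 13.2%. The mean percentile was 95.7 ± 1.81 in the 1,25D lists, against 29.5 ± 51.1 in the EtOH lists (SD, n = 3 each), with an exact permutation p of 0.1 (0.2 adjusted). With the EtOH value taken at the site inside the gene and the 1,25D values at the distant one, this comparison rests on the distant site: within 50 kb of the gene the difference was -12.6. Without EtOH replicate 2, the difference was 95.7 percentile points, and it was 66.2 with all lists.

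**Figure D2:**
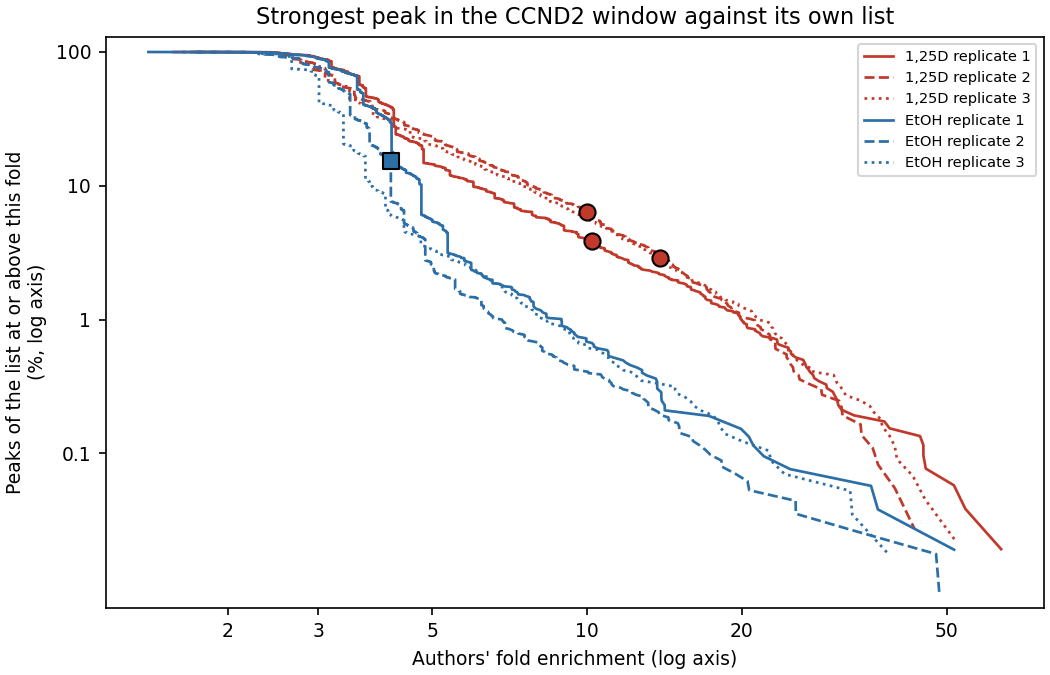
Share of the peaks of each list at or above a given fold (both axes logarithmic), over the chromosomes that all 6 lists cover, with the strongest peak in the CCND2 window marked on its list. The 1,25D peaks (circles, folds 10.2, 10.0 and 13.9) stand at percentiles 93.7 to 97.2 of their lists and the EtOH replicate 2 peak (square, fold 4.15) at 88.5.

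The site cannot be assigned to CCND2 by distance alone. In the GRCh38 annotation the nearest protein-coding gene before CCND2 is PARP11, 400 kb away, and TIGAR follows it at 15.9 kb. TIGAR and FGF23 also lie within 100 kb of CCND2. The next site after CCND2 that more than 1 1,25D list called began 134 kb past the gene end, with folds of 3.03 and 2.98 in 1,25D replicates 2 and 3 and no EtOH peak. The surroundings were sparse. Within 1 Mb of CCND2 on either side there were 9 sites in all, against a median of 47 per stretch of this length, and 11.4% of such stretches had as few. Stretches where reads cannot be aligned were not left out of this share. The nearest peaks of EtOH replicates 1 and 3 were both 1850 kb away.

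GADD45A had a site in its own body in part of the 1,25D lists. The site on chromosome 1 at 68151775 to 68152296, 0.915 to 1.44 kb past the gene start, was called in 1,25D replicates 2 and 3 and in no EtOH list. Of all sites, 3.89% were in at least 2 1,25D lists and no EtOH list, and 17% of stretches as long as this window held one. The gene is 3162 bp long (68150860 to 68154021). Whether the site lies in an exon or an intron was not determined, since no annotation of this build was used.

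The fold there was 3.16 in 1,25D replicate 2 and 5.33 in 1,25D replicate 3, at the 32.4th and 82.0th percentile of their lists, with caller p-values of 7.1e-05 and 1.2e-08. The 283 bp of the shorter peak lay inside the longer one of 521 bp. 1,25D replicate 1 had no peak there, but one of fold 3.61 that began 6.07 kb before the gene, at the 38.3rd percentile. In EtOH replicate 2, 3 peaks of fold 3.15, 4.14 and 3.28 began 26.3, 74.9 and 103 kb past the gene start. None of these overlapped a 1,25D peak, where 5.27% of all sites were called at least once in each treatment.

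The window held 1, 2 and 1 peaks in 1,25D replicates 1 to 3, against 0, 3 and 0 in EtOH replicates 1 to 3, so the groups overlapped. At least as many peaks were in 50.5%, 17.3% and 47.0% of stretches of this length in 1,25D replicates 1 to 3 and in 33.9% in EtOH replicate 2, and 52.8% and 51.7% of stretches were empty in EtOH replicates 1 and 3. The exact permutation p was 1 for peak number (1 adjusted). The mean percentile of the strongest peak was 50.9 ± 27.1 after 1,25D and 28.2 ± 48.9 after EtOH (SD, n = 3 each), with an exact permutation p of 0.6 (0.6 adjusted), and the groups overlapped here too. Both values depended on single libraries. The differences were 0.333 peaks and 22.7 percentile points with all lists, 1.33 and 50.9 without EtOH replicate 2, and -0.167 and 8.56 without EtOH replicate 1 or without EtOH replicate 3. Without 1,25D replicate 2 the difference in peak number was 0, and without 1,25D replicate 3 the percentile difference was 7.12. GNG12, 13.1 kb away in GRCh38, is the only other protein-coding gene within 100 kb.

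Around CDKN1B, whose product holds cyclin-dependent kinases in check in resting cells, there was no peak of either treatment. The gene (chromosome 12, 12870302 to 12875305) and its 100 kb flanks were empty in all 3 1,25D and all 3 EtOH lists, as were 16.3% of stretches of the same length (205 kb), so there was nothing to test. The nearest peak was 707, 707 and 687 kb away in 1,25D replicates 1 to 3 and 970, 942 and 970 kb away in EtOH replicates 1 to 3, in each case before the gene.

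Within 1 Mb of CDKN1B on either side there were 6 sites, against a median of 47. Of stretches of this length, 10.8% had as few. Stretches where reads cannot be aligned were not left out of this share or of the 16.3% above. The nearest site called after 1,25D alone in all lists lay 707 kb before the gene, with folds of 4.81, 2.78 and 6.998 in 1,25D replicates 1 to 3. The site called in all 6 lists that was nearest, 970 kb before the gene, had folds of 7.81, 8.24 and 7.40 in 1,25D replicates 1 to 3, against 4.76, 3.46 and 4.75 in EtOH replicates 1 to 3. The promoter shown above, whose neighbour GPR19 is 0.122 kb away in GRCh38, was thus without a peak in these lists.

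**Figure D3:**
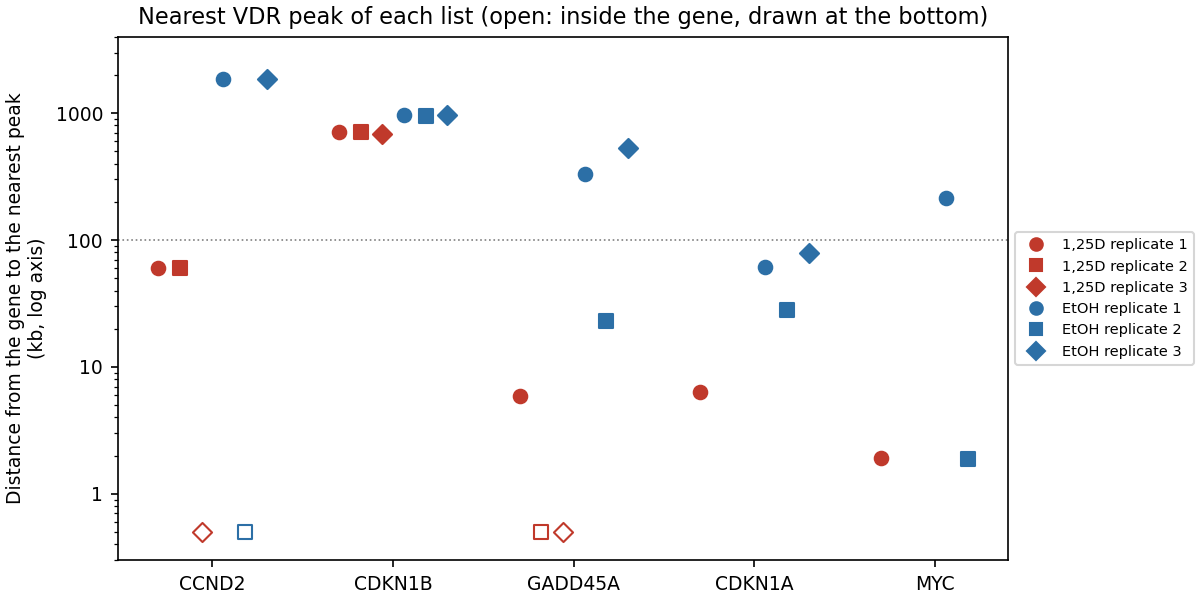
Distance in kb (log axis) from each gene to the nearest VDR peak of every list that covers it, with 1,25D lists in red left of EtOH lists in blue, the dotted line at the 100 kb window edge and open symbols for peaks inside the gene. All 6 lists are beyond the window at CDKN1B, at 687 to 970 kb.

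CDKN1A encodes p21, an inhibitor of cyclin-dependent kinases induced by p53 and known as a vitamin D target in myeloid cells. With 1 1,25D list at this gene (chromosome 6, 36644237 to 36655116) no test was made. The 1,25D list had 5 peaks in the window, against 1, 2 and 2 in EtOH replicates 1 to 3 (at least as many in 48.3%, 53.5% and 25.4% of stretches), and none of the 10 overlapped another. Of the sites of the 1,25D list, 79.8% had no EtOH peak over the part that these 4 lists cover. At least 5 peaks were in 2.41% of stretches of this length in the 1,25D list. Of its 5 peaks here, those at 36721780 to 36721927 and 36722028 to 36722175 stood side by side. Each was 147 bp long, with folds of 3.89 and 2.88, so the 5 peaks do not mark 5 well-separated places.

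The strongest of these peaks lay on chromosome 6 at 36669159 to 36669513, 14.0 kb past the gene end. It had a fold of 5.90 and a p-value of 2.5e-17 in 1,25D replicate 1, at the 87.9th percentile. Next was a peak that began 80.7 kb before the gene, with a fold of 4.81. The site nearest the start, 6.51 to 6.36 kb before it, was weak, with a fold of 2.997 at the 7.89th percentile. The EtOH peaks all lay before the gene, between 95.4 and 28.3 kb away, with folds of 2.91 to 3.87. SRSF3, RAB44 and CPNE5 also lie within 100 kb of CDKN1A in GRCh38, so these peaks have several genes as neighbours.

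Further out, VDR sites called in all covering lists were present on both sides of CDKN1A. The strongest within 1 Mb began 445 kb before the gene, at 36199695 to 36200333, with a fold of 13.5 in 1,25D replicate 1 and of 9.09, 8.20 and 7.98 in EtOH replicates 1 to 3. A total of 68 sites lay within 1 Mb, against a median of 40, and 9.08% of stretches had as many.

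MYC had a site close to its start that was listed in the 1,25D list and, weakly, in the longest EtOH list. The site lay on chromosome 8 at 128746043 to 128746431, between 2.27 and 1.88 kb before the gene start used here (128748315). 1,25D replicate 1 had a fold of 6.80 there, with a p-value of 2.0e-11, at the 91.8th percentile. EtOH replicate 2 had a fold of 3.10, with a p-value of 0.000426, at the 26.2nd percentile, and EtOH replicate 1 had no peak. The peaks shared 183 bp, or 81.7% of the shorter. The EtOH peak was not among the peaks kept at equal list length, where the 1,25D list alone called the site. That length was the 15262 peaks of the 1,25D list itself, so this cut could remove only EtOH peaks. By fold the EtOH peak ranked 24423 of 33820, so its loss was fixed in advance. A cut at a fold of 5 also leaves out this EtOH peak by definition. Over the 3 complete lists, 16% of the sites of the 1,25D list had a peak in an EtOH list, and 14.9% of stretches of this length held a site called in at least 2 lists. The RefSeq record of MYC in GRCh38 is 2152 bp longer than the interval used here, so the distance to its other starts is not given.

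The window held 4 peaks in the 1,25D list and 0 and 7 in EtOH replicates 1 and 2. At least 4 were in 6.43% of stretches of this length in the 1,25D list, and at least 7 in 6.94% in EtOH replicate 2. The other 1,25D peaks were weak, with folds of 3.16, 3.18 and 3.59, and began 77.7 kb before and 92.0 and 78.6 kb after the start. Those of EtOH replicate 2 had folds of 2.30 to 4.39, the highest of them 27.4 kb before the start. None of these overlapped between the lists. With 1 1,25D list no test was made.

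The strongest site within 1 Mb of MYC began 510 kb past its end, at 129263386 to 129264027, with a fold of 22.7 in 1,25D replicate 1 and of 15.2 and 11.3 in EtOH replicates 1 and 2. In the same region a site 476 kb past the gene had folds of 12.7 after 1,25D and 4.29 and 3.74 after EtOH. A site that began 993 kb past the gene end had folds of 19.2 after 1,25D and 4.76 and 7.61 after EtOH. A total of 101 sites lay within 1 Mb, against a median of 33, and 9.66% of stretches had as many. No other protein-coding gene lies within 100 kb of MYC in GRCh38.

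**Figure D4:**
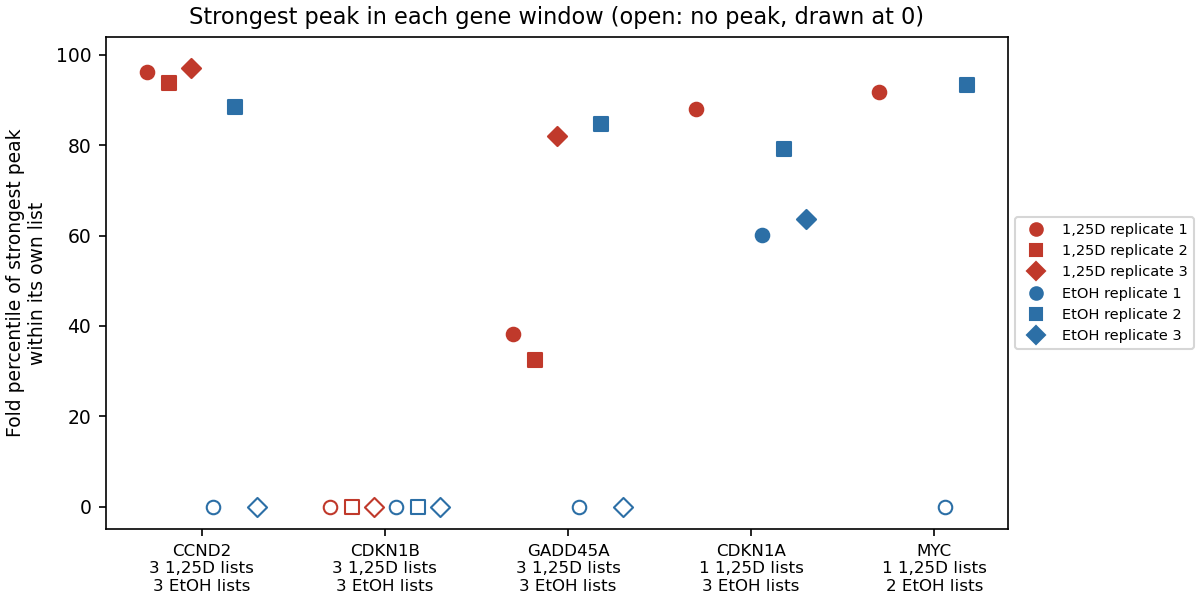
Percentile of the strongest peak of each gene window within its own list, with 1,25D lists in red left of EtOH lists in blue, a symbol for each replicate and an open symbol at 0 for a list with no peak. At CCND2 the 3 1,25D lists stand at 93.7 to 97.2 and all EtOH lists lower, whereas the groups overlap at GADD45A.

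Over the 5 windows, all 6 peaks with a fold of 5 or more were in 1,25D lists: 3 at the distant CCND2 site and 1 each at GADD45A, CDKN1A and MYC. EtOH peaks had folds of 2.30 to 4.39. Over the part of the genome that all 6 lists cover, such peaks are also rarer in the EtOH lists, at 2.57% to 5.39% against 14.5% to 22.5% in the 1,25D lists. CDKN1A and MYC lie outside that part. By these shares, a count of 0 among 16 EtOH peaks is near the background. The 25 sites seen in 1 list had folds of 2.30 to 5.90 and lengths of 141 to 354 bp. Of their peaks, 12 were at the minimum length of the list. They included 6 of the 11 window peaks of 1,25D replicate 1 and 5 of the 13 of EtOH replicate 2. In these lists 43.0% and 59.0% of all peaks are that short. By position, 4 peaks lay in a gene body (2 in CCND2 and 2 in GADD45A), 20 before a gene and 10 after one. Single-list sites were 89.8% of all sites of the 6 lists.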

How the data were processed

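VDR ChIPmentation peak lists of 3 1,25D and 3 EtOH libraries were used. Per the submitters' processing notes, reads were aligned to hg19 with Bowtie 1.1 and peaks called with MACS2; neither their settings nor the control is given in the sources used here. The deposited lists give each peak's position, its fold enrichment (a ratio over background, computed by the authors' peak caller) and its p-value, per the file headers. The authors' p-values reach 0.00433 in 1,25D replicate 1, 0.00431 in EtOH replicate 1 and 0.00978 to 0.00997 in the other lists. Whether starts count from 0 or 1 is not stated, so a start may be off by 1 bp. The incomplete last line of 3 lists was left out. Columns of other samples numbered 0.

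Gene intervals were given in hg19, and all 5 genes run towards higher coordinates. Peaks sharing 1 bp were merged into sites. Non-overlapping stretches of window length, from each chromosome's start to its last peak, served as background, with peaks placed by centre. Stretches where reads cannot be aligned were not left out, so shares of empty or sparse stretches include any of these. Tests were two-sided exact permutations over the 20 assignments of libraries. The sites named are those in at least 2 lists and the one nearest each start; the strongest CDKN1A peak, the single-list peaks given by value and the sites beyond the windows were added after their values were seen. Other genes of the pathway were not analysed here. Members, tests and alternatives were chosen with earlier results of these data known; the background stretches' percentile comparison and the 1 Mb surroundings were added after the lists were seen. Merging and the tests were checked on simulated lists. Python 3.11.15, NumPy 2.4.6, pandas 2.3.3 and Matplotlib 3.10.9 were used.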

Additional observations from a re-analysis of the deposited data

How the results depend on the processing

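No test passed 0.05 under any setting, and with 3 against 3 libraries none could. The distant CCND2 site was called in every 1,25D list and no EtOH list at a fold of 5 or more, with 1 highest p for all lists, at equal list length, with 50% overlap and with gaps of 100 bp closed, and in the remaining lists when any library was left out. The number of sites of this kind near the 3 fully covered genes was 1, but 0 within 50 kb of the genes, and 1 to 2 when a library was left out (2 without 1,25D replicate 1, where fewer lists have to agree). With flanks of 50 kb the CCND2 percentile difference turned to -12.6, since the distant site is then outside, and the MYC difference in peak number was -0.5, against 0.5. With flanks of 200 kb the GADD45A difference in peak number was -0.667; the cause was not tested. The CDKN1A difference in peak number, 3.33, was 1.67 within 50 kb and 1 at a fold of 5 or more, where fewer peaks are counted. Leaving out 1 library gave differences in peak number of 1.17 to 1.67 for CCND2, -0.167 (without EtOH replicate 1 or 3) to 1.33 (without EtOH replicate 2) for GADD45A, 3 to 3.5 for CDKN1A and -3 (without EtOH replicate 1) to 4 (without EtOH replicate 2) for MYC, and percentile differences of 51.4 to 95.7 for CCND2 and 7.12 to 50.9 for GADD45A. At equal list length the differences in peak number were 2.5 for MYC (0.5 with full lists) and 1 for GADD45A (0.333). For MYC, equal length kept the whole 1,25D list and shortened only the EtOH lists, so the difference could only stay or rise. The GADD45A percentile difference was 3.72 at a fold of 5 or more (22.7 with all peaks). The MYC site near the gene start lost its EtOH peak at equal list length and at a fold of 5 or more. Both losses were fixed in advance by that peak's fold of 3.10. Within 50 kb the peak number difference was 0 for CCND2 and 1 for GADD45A, whose percentile difference was 39.3. With 1 highest p for all lists the peak number difference was 0 for GADD45A and 1 for MYC, which also had 1 at a fold of 5 or more and with flanks of 200 kb. The CCND2 site inside the gene was split with 50% overlap. CDKN1B had no peak under any setting run. Same-numbered libraries had correlations of 0.0288, 0.0369 and 0.00486 in their deviations from the group means over sites. Each library correlated best with its own number except EtOH replicate 3. Correlations this small cannot decide whether the replicate numbers pair the libraries. With the replicate block the exact sign-flip p was 0.25 for the CCND2 peak number (difference 1.33) and its percentile (66.2), the smallest 3 pairs allow, and 1 and 0.75 for GADD45A (0.333 and 22.7). Depth is unknown, so no limit of detection is given.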
